A study of Homo sapiens with 8 samples.

Results

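snoRNA host gene transcripts are spliced noncoding RNAs whose introns carry small nucleolar RNAs. The members were set by name as GAS5, SNHG1, SNHG3, SNHG5, SNHG7, SNHG8, SNHG12, SNHG15 and SNHG16, 9 of the 43317 gene names and 23 of the 58201 probes on the array, with every probe of each name taken by a rule that reads names only. These genes are transcribed like messenger RNAs, and the snoRNAs cut from their introns guide the chemical modification of ribosomal RNA. Box C/D snoRNAs direct ribose methylation and box H/ACA snoRNAs direct pseudouridylation. The spliced exons that remain have little coding capacity, and several of them are short-lived because ribosomes engage them and nonsense-mediated decay removes them. Many hosts carry a 5′ terminal oligopyrimidine tract, the start sequence that couples ribosomal protein messenger RNAs to growth signals, and GAS5 was first cloned as a transcript that accumulates in growth-arrested cells.

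The arrays compared treated with mock cells in 4 human cancer cell lines. PC3 cells (prostate cancer) received bisamide, a small-molecule inhibitor of the protein pirin, for 24 h or 48 h, or were transfected with miR-125b-1-3p. C4-2 cells (prostate cancer) were transfected with miR-199-3p, 786-O cells (renal cancer) with miR-532-5p or miR-532-3p, and T24 cells (bladder cancer) with miR-140-5p or miR-140-3p, the strands of 1 hairpin in each of these lines. The time after transfection is not in the labels, and the mock cells are labelled as having had no transfection, so an effect of the transfection itself and of the miRNA cannot be told apart. Each of the 8 groups was 1 two-colour array with mock RNA in Cy3 and treated RNA in Cy5 on every array, so treatment and dye cannot be told apart either, no ratio has a replicate, and no p-value is given for one.

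Between 15442 and 19240 genes per array lay well above background in both channels, and all values here come from 1 slide. Repeated spots of a probe differed by a median SD of 0.04 to 0.05 on the log2 scale. Of the 23 member probes, 21 were well above background in both channels on all 8 arrays, and each of the 9 genes is represented by such a probe. Their unnormalised mock signal ran from 197 to 10280, against 321 to 827 for the 95th percentile of all probes, so the members were bright. KLK3, the prostate-specific antigen gene, read 13590 in C4-2 and was not above background in PC3. PAX8, PAX2 and LHX1, listed as renal markers, were above background in 786-O, where NDUFA4L2 was not. They were above background in T24 too. There PAX8 read 390 to 423 and PAX2 551 to 619, higher than in 786-O (235 to 239 and 112 to 124). LHX1 was higher in 786-O (545 to 576 against 92 to 95). PAX8 and LHX1 were also above background in PC3. None of UPK1B, UPK2, UPK3A and GATA3 was above background in T24, so the array gave no urothelial marker for that line.

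The 6 transfected miRNAs are shown because a miRNA pairs with its targets through its seed. RefSeq mature sequences follow, 5′ to 3′, with the seed (bases 2 to 8) in capitals; all 6 seeds differed, and the label miR-199-3p fits both genes of that name, whose mature sequences are identical.
miR-199-3p: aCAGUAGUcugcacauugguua
miR-125b-1-3p: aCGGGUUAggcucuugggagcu
miR-532-5p: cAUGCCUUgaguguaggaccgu
miR-532-3p: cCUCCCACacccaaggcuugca
miR-140-5p: cAGUGGUUuuacccuaugguag
miR-140-3p: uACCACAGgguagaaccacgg

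The probes of 5 members described at length below are given next, as printed on the array (GRCh37 coordinates from the array files, strand in words). RefSeq annotates 21 of the 23 member probes' accessions, all as long noncoding RNA. In the GAS5 probe (chr1:173833049-173833108, minus strand) capitals mark the polyadenylation hexamer AATAAA, present in 3 of the 23 member probes and in 7.85% of all probes on the same strand. In the SNHG16 probe (chr17:74561359-74561418, plus strand) capitals mark AACCACT, the match to the miR-140-5p seed. The SNHG1 probe lies at chr11:62619573-62619632, the SNHG5 probe at chr6:86386850-86386909 and the SNHG12 probe across chr1:28905179-28906090, all 3 on the minus strand and with no capitals.
GAS5: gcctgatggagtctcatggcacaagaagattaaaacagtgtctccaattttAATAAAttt
SNHG1: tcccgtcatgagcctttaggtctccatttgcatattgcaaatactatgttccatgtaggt
SNHG5: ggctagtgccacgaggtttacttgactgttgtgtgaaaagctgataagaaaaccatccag
SNHG12: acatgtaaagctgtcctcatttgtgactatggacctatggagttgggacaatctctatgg
SNHG16: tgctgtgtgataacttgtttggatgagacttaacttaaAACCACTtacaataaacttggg

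Across the 72 member values (9 genes on 8 arrays), 8 lay lower and 5 higher than 0.5 in log2 ratio of treated over mock, and 0 passed 1.0. Of all measured genes, 0.4% to 3.84% per array lay lower and 0.915% to 3.6% higher than that size. Ratios were corrected for background and for dye by an intensity-dependent (loess) curve within each array, and a size of 0.5 is what is meant below by a value past the threshold. The largest was SNHG12 at −0.87 with miR-532-5p. Arrays were also only centred on their median, which leaves any dye curve with intensity in place. The median of all genes above background itself then moved to between −0.03 and 0.45. All 9 members stood above 0 on 7 arrays, and the totals became 1 lower and 47 higher. After subtracting that median of all genes the totals were 1 lower and 19 higher. Of the 8 ratios past the threshold downwards, 7 changed sign under median centring and SNHG12 with miR-532-5p did not, whereas the 5 upwards kept their direction. Less the median of all genes, those 7 stayed below 0, from −0.32 for SNHG1 to −0.08 for SNHG16, both with miR-140-5p.

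**Figure D1:**
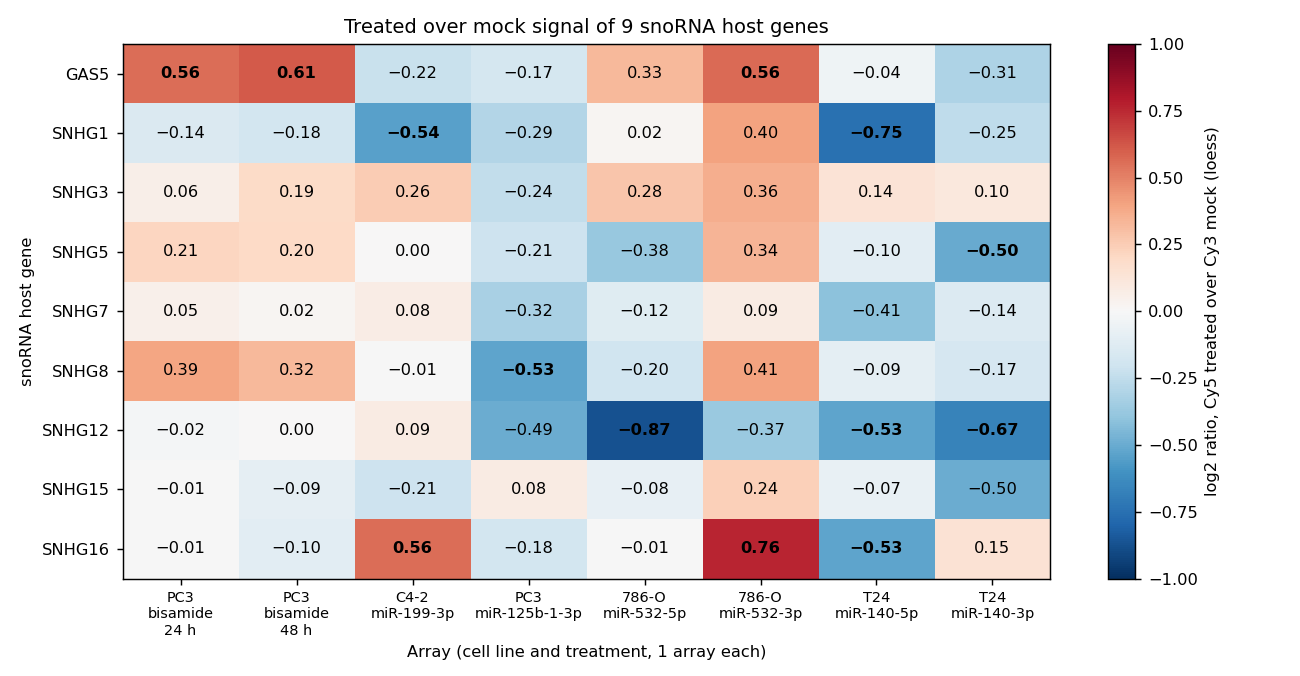
log2 ratio of treated (Cy5) over mock (Cy3) signal for the 9 snoRNA host genes (rows) on the 8 arrays (columns, 1 array each), after loess within each array; bold numbers are past 0.5 in size. GAS5 was higher on both bisamide arrays (0.56 and 0.61) and 8 of 9 genes were above 0 with miR-532-3p; 8 of 9 were below 0 on the array of miR-125b-1-3p and on that of miR-140-5p, where median centring put all 9 above 0.

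GAS5 was the member that stood out after bisamide. Its mock and treated signals before normalisation were 2730 and 7920 after 24 h of bisamide and 2844 and 8592 after 48 h, and its log2 ratios were 0.56 and 0.61, or 1.47-fold and 1.53-fold, after loess. Median centring gave 1.45 and 1.51, and 0.996 and 1.08 less the median of all genes. The second GAS5 probe read 0.83 and 0.86. GAS5 was 1 of 9 members past the threshold upwards at each time, where 1.05% of all measured genes were at 24 h and 0.915% at 48 h. Downwards 0 of 9 members passed, beside 0.4% and 0.878% of all genes.

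The other 8 members lay between −0.18 and 0.39 on the bisamide arrays. SNHG8, the host of the H/ACA snoRNA SNORA24, came next to GAS5 at 0.39 and 0.32, and SNHG5, the host of the U50 snoRNAs, read 0.21 and 0.20. SNHG1 was the lowest at −0.14 and −0.18. Over the 9 members the median was 0.05 at 24 h and 0.02 at 48 h, against 0.01 for all genes at both times. Between the 2 times no member moved by more than 0.14, the value of SNHG3, although each time had its own treated RNA.

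With miR-125b-1-3p, in the same line, the members were mostly low. SNHG8 read −0.53 and was the 1 of 9 members past the threshold downwards, where 0.883% of all genes were; upwards 0 members and 1.77% of all genes were past it. SNHG12 followed at −0.49, SNHG7 at −0.32 and SNHG1 at −0.29. SNHG15, a short-lived transcript, was the only member above 0, at 0.08. The members' median was −0.24 with 8 of 9 below 0, against 0.02 and 45.6% of all genes, while median centring put all 9 above 0. Less the median of all genes, SNHG8, SNHG12 and SNHG7 stayed below 0 (−0.23, −0.30 and −0.11) and the others did not.

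On the C4-2 array with miR-199-3p the members split. SNHG16 had unnormalised signals of 695 in mock and 1674 in treated cells and a log2 ratio of 0.56 after loess (1.21 under median centring, 0.90 less the median of all genes). SNHG1 lay at −0.54, which became 0.08 under median centring and −0.22 less the median of all genes. These were 1 member of 9 in each direction, beside 1.76% of all genes upwards and 2.73% downwards. SNHG3, a host of H/ACA snoRNAs, read 0.26, GAS5 −0.22 and SNHG15 −0.21, and the other 4 lay between −0.01 and 0.09.

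In 786-O cells both strands of miR-532 were tested against what the files name as the same mock RNA. With miR-532-5p, SNHG12 had an unnormalised signal of 1040 in mock and 504 in treated cells, and its log2 ratio after loess was −0.87, or 1.83-fold lower. SNHG5 read −0.38 and SNHG8 −0.20, while GAS5 read 0.33 and SNHG3 0.28. SNHG12 was the 1 of 9 members past the threshold downwards (3.67% of all genes), and 0 members passed upwards (3.6%).

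With miR-532-3p the members were high: 8 of 9 lay above 0, with a median of 0.36 against −0.00 and 50% above 0 for all genes. SNHG16 had unnormalised signals of 1321 in mock and 3478 in treated cells and a log2 ratio of 0.76 after loess, and GAS5 read 0.56. Median centring gave 1.37 and 1.27 for them, and 1.19 and 1.1 less the median of all genes. These 2 members passed the threshold upwards, where 1.71% of all genes did, and 0 passed downwards, beside 3.84%. SNHG8 at 0.41, SNHG1 at 0.40, SNHG3 at 0.36 and SNHG5 at 0.34 came next. SNHG12 was the only member below 0, at −0.37, and it read 0.14 under median centring.

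Set side by side, all 9 members stood higher with miR-532-3p than with miR-532-5p. The difference in log2 ratio was 0.77 for SNHG16, 0.72 for SNHG5, 0.61 for SNHG8 and 0.50 for SNHG12, these 4 being past 0.5 upwards (4.08% of all genes were) and 0 downwards (4.8%). The other 5 differences ran from 0.08 for SNHG3 to 0.38 for SNHG1. The members' median difference was 0.38, that of all genes −0.01, and all 9 stayed above 0 in each of the 8 alternative settings, with medians of 0.32 to 0.97. Each treated channel is a single sample.

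**Figure D2:**
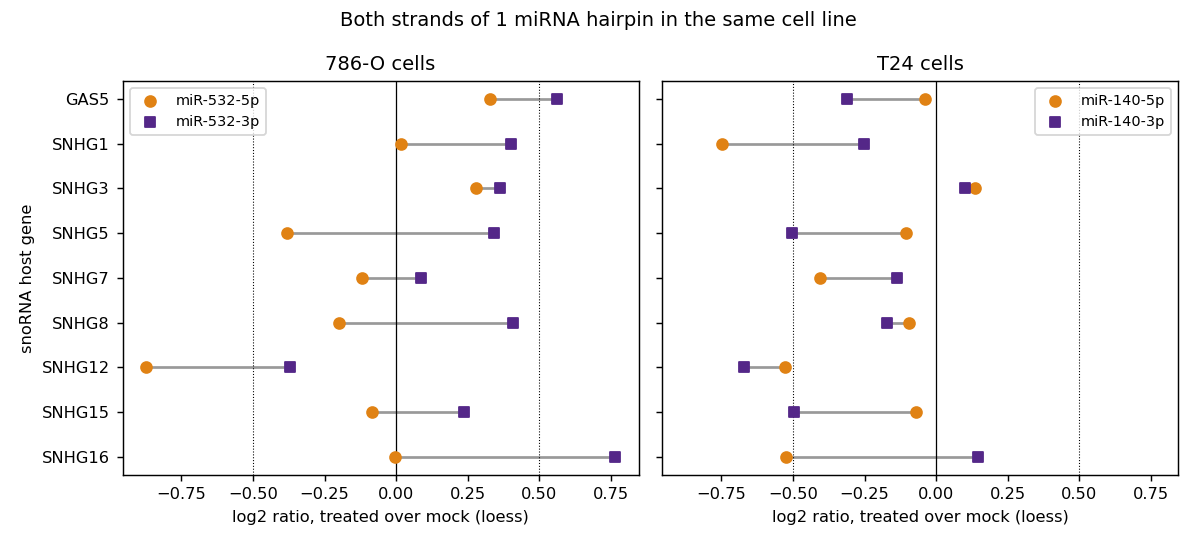
log2 ratio of treated over mock for each snoRNA host gene with the 5p strand (circles) and the 3p strand (squares) of miR-532 in 786-O cells (left) and of miR-140 in T24 cells (right), 1 array per strand; dotted lines mark 0.5 in size. In 786-O every square lies to the right of its circle (differences of 0.08 to 0.77), whereas in T24 3 of 9 do; median centring kept the 786-O order and gave 4 of 9 in T24.

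In T24 cells the members were mostly low with either strand of miR-140 on the loess scale. With the scanner's own dye-normalized ratio every member ratio stayed within 0.323 of its loess value. Median centring put all 9 members above 0 on both arrays. With miR-140-5p, SNHG1 read −0.75, SNHG12 −0.53 and SNHG16 −0.53. All 3 were above 0 under median centring (0.03, 0.24 and 0.27) and below 0 less the median of all genes (−0.32, −0.11 and −0.08). These made 3 of 9 members past the threshold downwards (2.89% of all genes) and 0 upwards (1.74%). SNHG7 read −0.41, and SNHG3 was the only member above 0, at 0.14. The members' median was −0.10, that of all genes 0.01.

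The SNHG16 probe printed above holds the 7-base match to the miR-140-5p seed. No other of the 23 member probes held a match to the seed of an array's miRNA, and 0.436% of all probes held this one on the transcript strand. The 72 measured genes whose probe held it had a median log2 ratio of −0.09 on that array, the rest 0.01. A 60-base probe is a small window of a transcript, so genes without the letters in it may have them elsewhere.

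With miR-140-3p, SNHG12 read −0.67 and SNHG5 −0.502, which made 2 of 9 members past the threshold downwards (1.09% of all genes) and 0 upwards (0.998%). Both were above 0 under median centring and below 0 less the median of all genes (−0.31 and −0.12). SNHG15 lay just inside at −0.497. GAS5 read −0.31 here and −0.67 on its second probe. SNHG16, at 0.15, and SNHG3, at 0.10, were the members above 0. The members' median was −0.25 against 0.02 for all genes.

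The strands of miR-140 did not order the members one way. SNHG16 stood 0.67 higher with miR-140-3p than with miR-140-5p, SNHG1 0.49 and SNHG7 0.27, and the other 6 stood lower, SNHG15 by the most at −0.43. Upwards 1 member was past 0.5 (3.54% of all genes), and downwards 0 were (2.4%). SNHG16 was thus the highest member in both strand differences, in 786-O and in T24.

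Genes with more than 1 probe above background gave a second reading of the same RNA. On the loess scale the 6 SNHG5 probes all lay below 0 with miR-140-3p, with miR-532-5p and on the miR-125b-1-3p array, and all above 0 on both bisamide arrays and with miR-532-3p, with a range of at most 0.36 on any array. A pair of these probes shared 59 bases and another pair 52, so they are not separate readings. The GAS5 probes had the same sign on all 8 arrays and differed by up to 0.36, as did those of SNHG1 with up to 0.29. The 4 SNHG7 probes took both signs on 6 arrays with a range of up to 0.48, and the 3 SNHG15 probes on 5 arrays with up to 0.21. Averaged over all probes of a gene, the members gave 5 values past the threshold upwards and 4 downwards. This mean takes in the 2 probes, of SNHG1 and SNHG8, that were not above background in both channels of any array. With miR-125b-1-3p the SNHG8 probes read −0.53 and −0.07, the latter at background, which took SNHG8 inside the threshold.

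**Figure D3:**
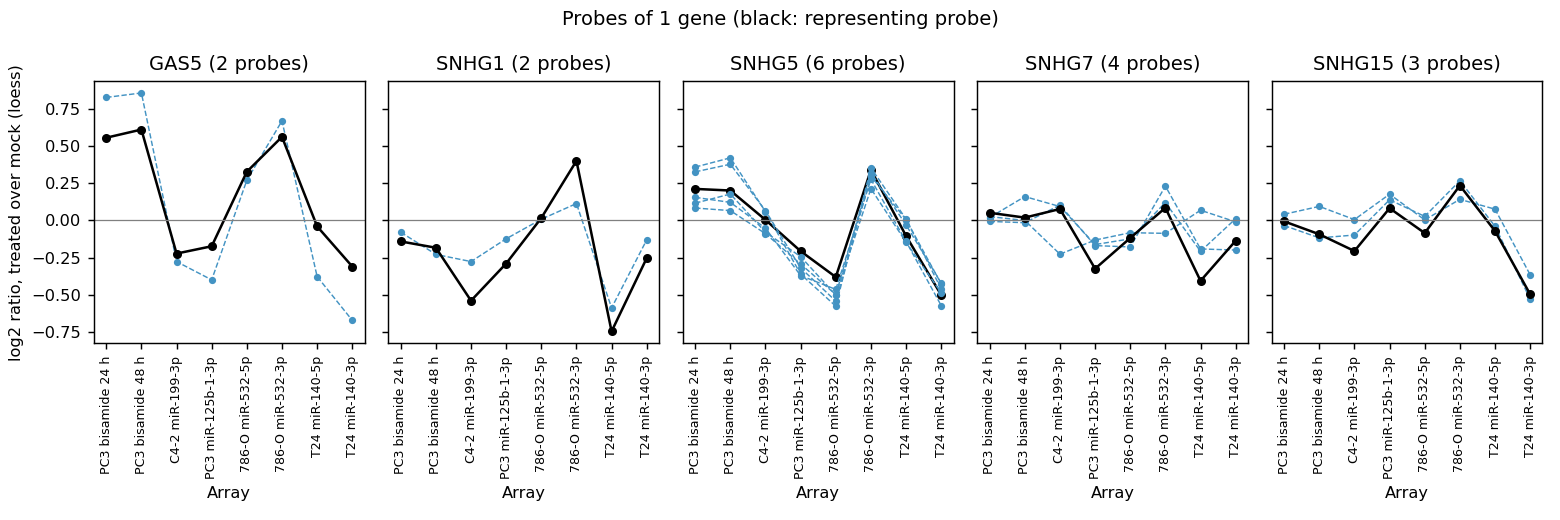
log2 ratio of treated over mock for each probe of the 5 snoRNA host genes with more than 1 probe above background (panels), on the 8 arrays in turn; black points are the probe that represents the gene, blue points the others, and lines only join points of 1 probe. The 2 GAS5 and 6 SNHG5 probes move in parallel, while SNHG7 probes lie on both sides of 0 on 6 arrays; median centring lifts every array but that of miR-532-5p.

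The introns of the hosts are measured separately through snoRNA probes. Of 35 snoRNAs listed for these genes, 24 had a probe and 18 lay above background in both channels on all arrays, with mock signals of 26.3 to 1515. Mature snoRNAs have no poly(A) tail, and whether such a probe read the mature snoRNA or unspliced host RNA cannot be told apart. After bisamide the 4 measured GAS5 snoRNAs had a median log2 ratio of 0.06 at 24 h and 0.08 at 48 h and ran from 0.01 to 0.21, all below their host's 0.56 and 0.61. These probes were dim, with mock signals of 31.1 to 72.2, against 2730 and 2844 for GAS5 and a median of 22.4 to 24.4 over all probes. The offset of 50 in the background correction pulls ratios of dim probes towards 0. Sizes of bright hosts and dim snoRNA probes are therefore not like for like, here and below. SNORA24 read 0.43 and 0.26 beside 0.39 and 0.32 for its host SNHG8.

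Elsewhere, on the loess scale, hosts past the threshold had snoRNAs near 0 in some cases and on the other side of 0 in others. Median centring put SNHG1 at 0.03 with miR-140-5p and 0.08 with miR-199-3p. It put SNHG8 at 0.19 with miR-125b-1-3p and SNHG12 at 0.14 with miR-140-3p. Less the median of all genes, these 4 host ratios were −0.32, −0.22, −0.23 and −0.31. The snoRNAs were read on the loess scale only, so opposite signs of these hosts and their snoRNAs are given for that scale alone. The 8 SNHG1 snoRNAs had a median of 0.17 with miR-140-5p (host −0.75) and 0.06 with miR-199-3p (host −0.54). The 2 measured SNHG16 snoRNAs had a median of 0.02 with miR-532-3p (host 0.76), and the 4 SNHG12 snoRNAs of −0.03 with miR-532-5p (host −0.87), spread from −0.51 for SNORA61 to 0.68 for SNORA16A. SNORA24 read 0.28 with miR-125b-1-3p (SNHG8 −0.53), and the 4 SNHG12 snoRNAs had a median of 0.31 with miR-140-3p, up to 0.71 (host −0.67). In T24 others were high: SNORA24 read 0.67 with the 5p strand and 0.88 with miR-140-3p, SNORD26 of SNHG1 0.72 with miR-140-5p, and SNORA9 of SNHG15 0.75 with miR-140-3p, where the hosts were at or below −0.09. Past 0.5 upwards were 3 of 22 measured snoRNAs with miR-140-5p (1.74% of all genes) and 5 of 21 with miR-140-3p (0.998%). With miR-532-5p 2 of 22 passed upwards (3.6%) and 1 downwards (3.67%), and with miR-532-3p 1 of 22 passed upwards (1.71%). Upwards 0 passed with bisamide (1.05% and 0.915%), miR-199-3p (1.76%) or miR-125b-1-3p (1.77%).

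**Figure D4:**
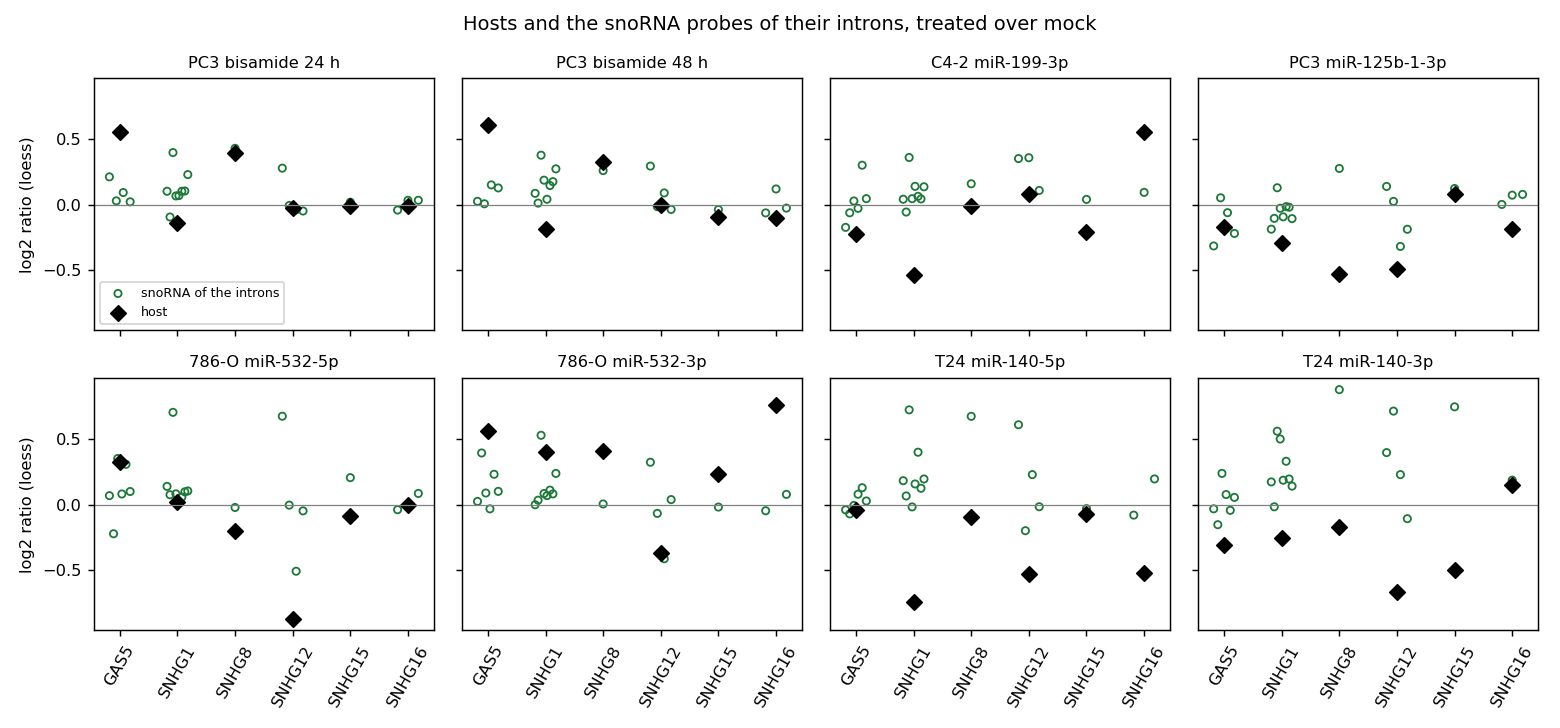
log2 ratio of treated over mock for snoRNA host genes and for the probes of the snoRNAs in their introns, by host, on each of the 8 arrays. GAS5 (0.56 and 0.61 with bisamide) lies above its 4 snoRNAs (0.01 to 0.21), whose probes were dim (mock signals of 31.1 to 72.2). SNHG1 with miR-140-5p (−0.75, 0.03 under median centring, or −0.32 less the median of all genes) lies below the median of its 8 snoRNAs (0.17).

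Genes with related roles were read from lists. Of 15 other noncoding snoRNA hosts on the array, 13 were measured with miR-532-3p and 12 of them lay above 0 (median 0.19), and 14 were measured with miR-125b-1-3p and 12 lay below 0 (median −0.14), where median centring put all 14 above 0. EPB41L4A-AS1 read 0.78 with miR-532-3p, DANCR 0.74 with miR-199-3p and ZFAS1 −0.62 with miR-140-3p, the only ones of the list past the threshold on any array. In those directions 1.71%, 1.76% and 1.09% of all genes were past it. ZFAS1, host of C/D snoRNAs, was also the gene most like GAS5 over the 8 arrays (Pearson r = 0.97 among 10382 genes compared, as a description), with 0.40 and 0.37 on the bisamide arrays. USP40 and TBCK came next with r = 0.97 and 0.96, but USP40 stayed between −0.16 and 0.05.

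The members' median followed SCOC (r = 0.97), HERC2P2, LRRC40, ZNF138 and SERP1 (r = 0.92 for the last) most closely, and SCOC itself only ran from −0.10 to 0.21. Among the members, 35 of 36 pairs had a correlation above 0 over the 8 arrays, with a median r of 0.49; all pairs share arrays, dyes and mock RNA.

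Protein-coding snoRNA hosts, mostly ribosomal protein and translation factor genes, had 0 of 34 past the threshold on either bisamide array, with medians of 0.09 and 0.14. Of all genes, 1.05% and 0.915% were past it upwards there and 0.4% and 0.878% downwards. The highest of these hosts were RPL12 (0.47 and 0.44), RPL23, RPL13A and RPS2. Among 34 measured with miR-532-3p, 22 lay above 0 with a median of 0.12, and RPL12 (0.65) and RPL23 (0.50) were the 2 past the threshold upwards (1.71% of all genes). The 21 nonsense-mediated decay factors, which act on several of the hosts, had 0 past it on the bisamide arrays (0.4% to 1.05% of all genes in a direction), with medians of 0.00 and −0.00. PNRC2, a decay cofactor, read 0.55 and EIF4A3, of the exon junction complex, −0.55 with miR-532-5p. EIF4A3 read −0.63 with miR-532-3p, where 2 of 21 factors passed the threshold downwards (3.84% of all genes). Among the proteins that assemble with snoRNAs, NOP56, a core protein of C/D particles and itself a snoRNA host, read −0.95 with miR-532-5p, and NOLC1 −0.72 with miR-199-3p. Of that list 3 of 16 measured passed the threshold downwards with miR-532-5p (3.67% of all genes), NOLC1 at −0.65 among them. With miR-532-3p 1 of 15 did (3.84%). ZNHIT6 and ZNHIT3 stayed within 0.5.

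Integrated stress response genes, which cells raise when translation initiation is limited, moved most on the bisamide arrays. There 13 of 18 measured were past the threshold upwards at 24 h (median 1.09, 1.05% of all genes past it) and 11 of 18 at 48 h (median 0.55, 0.915%). CHAC1, a glutathione-degrading enzyme, read 2.63 and 2.18, ASNS, asparagine synthetase, 2.80 and 1.86, TRIB3 2.33 and 1.23, and PSAT1 1.70 and 1.31. With miR-199-3p 7 of 19 passed it downwards (2.73% of all genes), ASNS at −1.25. The part of this response in the GAS5 ratio was not tested.

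SNHG1 starts beside SLC3A2, the heavy chain of amino acid transporters and a stress response gene. The 2 start sites lie 224 bases apart on opposite strands (GRCh38.p14), and the 300 bases around the SNHG1 start are printed because its neighbour's start falls inside them. They cover chr11:62855836-62856135 on the minus strand, with capitals from the SNHG1 start on.
SNHG1 start: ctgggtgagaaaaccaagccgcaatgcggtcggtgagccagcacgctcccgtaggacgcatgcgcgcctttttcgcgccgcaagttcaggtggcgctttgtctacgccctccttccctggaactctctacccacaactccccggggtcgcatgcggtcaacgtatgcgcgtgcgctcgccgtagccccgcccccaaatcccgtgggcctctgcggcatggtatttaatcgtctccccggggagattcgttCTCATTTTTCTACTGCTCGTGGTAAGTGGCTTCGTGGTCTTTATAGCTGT

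SLC3A2 read 0.91 at 24 h and 0.53 at 48 h of bisamide, where SNHG1 read −0.14 and −0.18. Both were low with miR-199-3p (−0.58 and −0.54) and with miR-140-5p (−0.66 and −0.75). The neighbours of SNHG3 and SNHG12, RCC1 and TRNAU1AP, stayed between −0.35 and 0.16.

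The annotated starts of 8 members are in the RefSeq promoter table, SNHG15 being absent from it. A pyrimidine tract, taken as C at the start followed by at least 3 further C or T without a break, opened 3 of the 8 (SNHG5, SNHG7 and SNHG12) and 5.45% of 35116 starts. They are printed because this tract is the feature the hosts are known for: 10 bases before and 40 from the start, GRCh38.p14, with the tract in capitals. SNHG5 lies at chr6:85678694-85678743, SNHG7 at chr9:136728145-136728194 and SNHG12 at chr1:28581834-28581883, all on the minus strand. An annotated start can be off by bases, so a missing tract says only that these letters are not at that position.
SNHG5 start: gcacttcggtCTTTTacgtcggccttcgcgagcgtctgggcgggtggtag
SNHG7 start: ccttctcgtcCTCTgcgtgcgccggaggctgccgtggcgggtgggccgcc
SNHG12 start: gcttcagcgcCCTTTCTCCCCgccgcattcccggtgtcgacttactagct

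The mock channels gave the members' levels in the 4 lines. Levels are log2 Cy3 signals after quantile normalisation and are compared between lines within a probe only. The 2 mock channels of 786-O and of T24 were averaged, which left 3 PC3 samples and 1 of each other line. limma's F test over the lines called 8 of 9 members at an adjusted p (Benjamini-Hochberg over 20447 genes) under 0.05, where it called 64% of all genes. SNHG1 was the exception (adjusted p = 0.304), although it passed with 75th percentile scaling (0.0234), where SNHG3 did not (0.057), and with the 8 channels as separate samples (0.0294). The call of SNHG3 (0.0357) was also lost with no filter on dim probes (0.0676) and without the 24 h or the 48 h mock (0.0626 and 0.0972). SNHG1 read 9.99 to 10.42 in PC3, 10.29 in C4-2, 9.88 in 786-O and 10.40 in T24. The spread comes from the PC3 mocks alone, with 2 residual degrees of freedom, and is assumed for the other lines, and in bulk RNA fewer expressing cells and less RNA per cell cannot be told apart.

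SNHG5 was highest in 786-O. It read 10.08, 10.12 and 9.65 in the PC3 mocks, 9.98 in C4-2, 13.03 in 786-O and 10.29 in T24. The 786-O mock stood 3.08 above PC3 (SE 0.224, 8.46-fold, limma adjusted p = 0.00403), 3.05 above C4-2 (adjusted p = 0.0049) and 2.74 above T24 (a T24 minus 786-O difference of −2.74, adjusted p = 0.011). The other 3 lines did not pass the threshold against each other (adjusted p of 0.318 to 0.918). With 75th percentile scaling the fold over PC3 was 5.11. All 6 SNHG5 probes gave this difference, from 2.82 to 3.70.

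SNHG16 was highest in PC3. Its levels were 12.18, 12.09 and 12.20 in the PC3 mocks, 11.07 in 786-O, 10.46 in T24 and 10.15 in C4-2. C4-2 stood at −2.0 against PC3 (SE 0.0679, 4.01-fold lower, limma adjusted p = 0.00081; 6.44-fold with 75th percentile scaling), though both are prostate lines. The T24 and C4-2 levels were neighbours that did not pass the threshold (adjusted p = 0.0551). On the unnormalised scale the PC3 mocks read 6224 to 6774 and the C4-2 mock 695.

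GAS5 and SNHG8 were lowest in PC3. By the mean of the PC3 mocks so were SNHG3, SNHG5, SNHG7, SNHG12 and SNHG15, SNHG5 only just (9.95 against 9.98 in C4-2). GAS5 read 10.84, 10.97 and 11.02 in PC3, 12.35 in 786-O, 12.99 in C4-2 and 13.31 in T24. T24 exceeded PC3 by 2.37 (5.17-fold, limma adjusted p = 0.00209), and T24 and C4-2 did not pass the threshold against each other (adjusted p = 0.0936). SNHG8 read 9.94 to 10.05 in PC3, 10.97 in T24, 11.49 in 786-O and 12.02 in C4-2, each step past the threshold (adjusted p of 0.00433, 0.0251 and 0.0147). The T24 to 786-O step was lost with 75th percentile scaling (0.445), with the mean over probes (0.0569) and without the 24 h or the 48 h mock (0.0621 and 0.0864), and the 786-O to C4-2 step without the 48 h mock (0.0554).

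SNHG7 and SNHG12 read highest in 786-O, but neither passed the threshold against the next highest line. For SNHG12 the T24 minus 786-O difference of −0.50 became 0.01 with 75th percentile scaling. SNHG7 read 8.75 to 9.32 in PC3, 10.24 in T24, 10.43 in C4-2 and 11.26 in 786-O, and of the neighbouring lines PC3 and T24 passed the threshold (limma adjusted p = 0.0414). That call was lost without the 24 h mock (0.0673), without the 48 h mock (0.108), with no filter on dim probes (0.0759) and with the mean over probes (0.0525). SNHG12 read 8.52 to 8.85 in PC3, 9.13 in C4-2, 10.21 in T24 and 10.71 in 786-O, and the step from C4-2 to T24 passed it (adjusted p = 0.0183, or 0.0602 without the 48 h mock).

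SNHG3 and SNHG15 differed less. SNHG3 read 9.34 to 9.95 in PC3, 10.13 in T24, 10.24 in 786-O and 11.37 in C4-2, where C4-2 exceeded PC3 by 1.67 or 3.18-fold (limma adjusted p = 0.0143), which was 2.08-fold with 75th percentile scaling. SNHG15 read 8.17 to 8.47 in PC3, 8.51 in C4-2, 8.88 in 786-O and 9.40 in T24, where T24 exceeded PC3 by 1.04 (adjusted p = 0.0151, or 0.0539 without the 24 h mock). No 2 neighbouring lines passed the threshold in either gene.

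Pair by pair, 5 of 9 members differed between C4-2 and PC3 (50.7% of all genes), 6 between 786-O and PC3 (37.4%) and 6 between T24 and PC3 (32.5%). Between the single mocks, 5 differed between 786-O and C4-2 (40.7%), 3 between T24 and C4-2 (41.4%) and 4 between T24 and 786-O (25.3%). The PC3 mock of the miR-125b-1-3p array was the lowest PC3 mock for 6 of 9 members, whose SD over the 3 ran from 0.06 to 0.32 against a median of 0.07 over all genes. Left out in turn, the mocks of the bisamide 24 h, bisamide 48 h and miR-125b-1-3p arrays gave 6, 5 and 8 members in the F test. Without the 48 h mock the last 3 pair counts became 3, 1 and 1, without the 24 h mock 5, 2 and 2, and without the miR-125b-1-3p mock 8, 5 and 6.

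**Figure D5:**
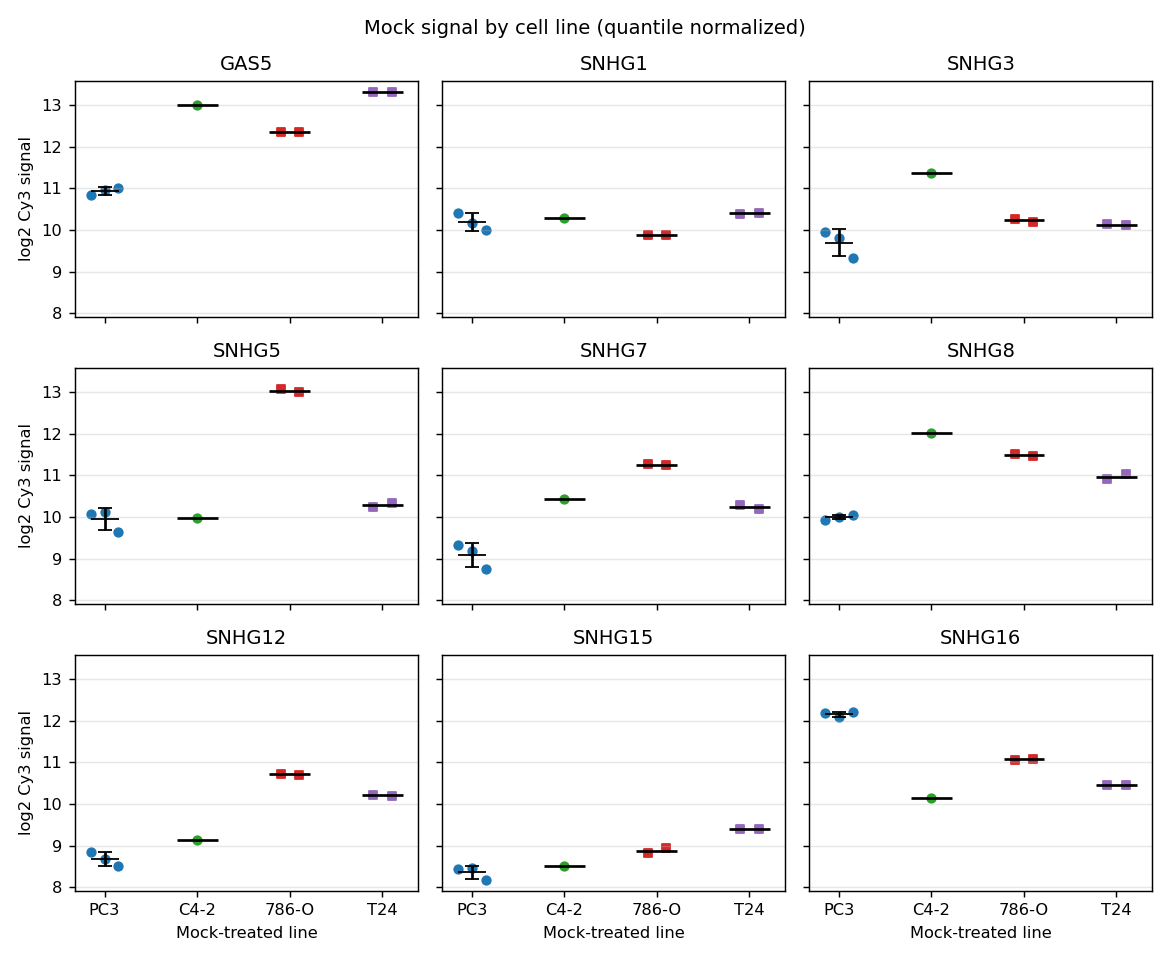
log2 Cy3 signal of the mock cells (quantile-normalised) for the 9 snoRNA host genes in PC3 (3 mocks), C4-2, 786-O and T24 (1 each, the last 2 averaged over 2 channels). SNHG5 stands apart in 786-O (13.03) and SNHG16 in PC3 (12.09 to 12.20), while SNHG1 lies between 9.88 and 10.42 in all lines; scaling to the 75th percentile turns the sign of 7 small differences against PC3, of SNHG1, SNHG3, SNHG5, SNHG12 and SNHG15.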

How the data were processed

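The 8 arrays were analysed, 1 per group. Per the file headers, the authors scanned them with Agilent Feature Extraction 11.5.1.1 on a GRCh37 design and deposited spot intensity values for both channels with local background, on a linear scale. The deposited log10 ratio of Cy5 over Cy3 in the same files, already dye-normalized by the scanner software, served as an alternative, as did the deposited series table, which holds the same log10 ratio. The authors gave no counts, so precision rests on the number of arrays.

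From the intensities, log2 ratios were computed with limma 3.58.1 (R 4.3.3) and pandas 2.3.3 (Python 3.11.15): normexp background correction (offset 50), loess within each array with control spots at weight 0, spots averaged without flagged outliers, and each gene represented by its brightest probe on average over the arrays. A value was past the threshold at 0.5 in log2 size when well above background in both channels. Mock Cy3 levels were quantile-normalized and tested with lmFit and eBayes over the 4 lines, with pairwise contrasts and Benjamini-Hochberg adjustment over 20447 genes. The 786-O and T24 mock pairs were averaged because their labels name no separate cultures and their names repeat 1 mock number. Labels do not say whether the PC3 mocks were separate cultures, so the p-values measure the spread between these samples, which may be technical.

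All probes of the 9 members were reported, and of each other list up to 4 genes with the largest median size over the bisamide or the miRNA arrays, with further genes chosen after their values were seen where a count of 5 or fewer was named. Members and lists were chosen with earlier results of these data known. Alternatives were other background corrections, median centring, the scanner's ratio, the series table, the mean over probes, other filters and sizes, and for mock levels other scalings, separate or blocked channels and leaving out each PC3 mock. Scripts were tested on simulated data. Sequences came from RefSeq (GRCh38.p14) and the array files.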

Additional observations from a re-analysis of the deposited data

How the results depend on the processing

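No paired analysis was possible because a group is only 1 array. Of 72 member ratios, all moved by less than 0.323, the highest SD of any member over the PC3 mocks, under plain background subtraction, no correction, offset 0, the scanner's ratio, the series table and the mean over probes. Median centring reversed SNHG1 with miR-199-3p (0.0794) and miR-140-5p (0.0298), SNHG5 with miR-140-3p (0.33), SNHG8 with miR-125b-1-3p (0.19), SNHG12 on both T24 arrays (0.245 and 0.142), and SNHG16 with miR-140-5p (0.27). It left 0 members past the threshold downwards on those 4 arrays (1 in all) and gave upwards 9, 9, 7, 3, 8, 5 and 6 on all arrays but that of miR-532-5p (47 in all). Less the median of all genes, a setting chosen after seeing the data, the upward counts were 4 and 4 with bisamide, 2 with miR-199-3p, 6 with miR-532-3p, and in T24 2 with the 5p and 1 with the 3p strand (19 in all), and downwards 0 on the same 4 arrays (1 in all). The ratios that median centring reversed stayed below 0 in that setting, from −0.32 to −0.08. Downwards, miR-125b-1-3p held 2 members under plain subtraction, no correction, offset 0, the scanner's ratio and the series table. The mean over probes gave 0 there and with miR-199-3p, 1 with miR-140-3p and 4 in all. It includes the 2 member probes, of SNHG1 and SNHG8, that were not above background in both channels of any array. Sizes of 1.0 and 1.5 left 0 members in either direction on every array. The miR-532 strand difference held 9 members upwards under median centring and 8 less the median of all genes; the miR-140 one held 2 without background correction, under median centring, with the scanner's ratio and with the series table. Median centring makes no intensity-dependent correction, so any dye curve with intensity stays in its ratios. How far this accounts for its moves was not tested, nor was the cause of the other moves.

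For mock levels, the 75th percentile reversed differences from PC3 of SNHG1 (−0.62), SNHG5 (−0.68), SNHG12 (−0.27) and SNHG15 (−0.54) in C4-2, of SNHG3 (−0.25) and SNHG15 (−0.19) in 786-O and of SNHG1 (−0.0421) in T24. Of these, SNHG1, SNHG5 and SNHG15 in C4-2 then passed limma's adjusted threshold (0.0473, 0.0413 and 0.0257). The mean over probes reversed SNHG15 in C4-2 (−0.0144). Leaving out the PC3 mock of miR-125b-1-3p reversed SNHG1 and SNHG5 in C4-2, whose values ran from −0.0001888 to 0.213 and from −0.119 to 0.114 over the mocks left out. All 8 channels as separate samples called 8 members between 786-O and C4-2, 6 between T24 and C4-2 and 8 between T24 and 786-O, and the averaged pairs as a block 6 and 8 in the last 2. Leaving out each PC3 mock in turn gave 5 to 8 members in the F test, 3 to 8 between 786-O and C4-2, 1 to 5 between T24 and C4-2 and 1 to 6 between T24 and 786-O.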
